A study of Homo sapiens with 10 samples.

Results

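The cytosolic ribosomal protein genes encode the proteins of the small and large subunits of the ribosome that translates messages in the cytosol. They were taken from the arrays by symbol: RPL or RPS and a number, with no letters after it other than A, L or X, together with RPLP0, RPLP1, RPLP2 and RPSA. Pseudogenes, the RPS6K kinases and Y-linked copies were left out. This gave 82 genes on 155 probes, out of 35267 genes on the arrays, and 81 of them could be tested among 17379 genes. These totals, and all shares of all genes below, count each identifier without a RefSeq match as a gene of its own. RPL27A was not tested because its single probe was well above background on 1 array only.

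The mRNA came from MEG-01 cells, a human megakaryoblastic leukemia line. One group had been nucleofected with 200 nM of a precursor that yields miR-1225-3p and the other with a scrambled negative control precursor, and both were harvested after 24 h, with 5 biological replicates a group. The control samples carry a source label of no treatment, but titles and protocol both describe a transfection, so they are called scrambled here. MEG-01 is a single transformed line, so the replicates share its genome. Each sample was hybridized to 1 Agilent array in a single Cy3 channel.

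Ribosomal protein mRNAs are among the most abundant messages of growing cells, and their proteins are built with ribosomal RNA into subunits in the nucleolus. Most of these mRNAs begin with a cytosine and a run of pyrimidines, the terminal oligopyrimidine (TOP) tract, through which mTOR and the protein LARP1 set their translation and stability together. In the blood-forming lineages they are best known from Diamond-Blackfan anemia, in which loss of 1 copy of RPS19 or of other members impairs red cell formation.

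The sequence of the transfected microRNA and the starts of members that the results turn on are shown to make clear what was added and what the members share. The mature microRNA, with its seed (bases 2 to 8) in capitals, is encoded at chr16:2090195-2090216 on the minus strand of GRCh38.p14 in RefSeq.
hsa-miR-1225-3p: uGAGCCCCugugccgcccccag
The RefSeq promoter table of GRCh38.p14 held 80 annotated starts for 65 of the members. A C at the start followed by at least 4 bases that are each C or T was looked for on the transcribed strand, and 46 of the 80 member starts (57.5%) had it, against 4.07% of all 35116 starts in the table. The windows run from 10 bases before the start to the base 15 of the transcript, and capitals mark the tract.
RPS16, chr19:39435935-39435959, minus strand: ccctagctttCCTTTTCCggttgcg
RPLP0, chr12:120201097-120201121, minus strand: ggcgcgaggcCCTTCTCTCgccagg
RPS3, chr11:75399508-75399532, plus strand: cgagccacttCCTTTCCTTTCagcg
RPS18, chr6:33272065-33272089, plus strand: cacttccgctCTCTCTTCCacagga
RPS19, chr19:41860245-41860269, plus strand: ccccgtcgttCCCTTTCCCCTggct
RPL37A, chr2:216498834-216498858, plus strand: gcgtctcttcCTTTCTgggctcgga
RPL11, chr1:23691796-23691820, plus strand: gctccgctttCTCTTCCTgctctcc
The annotated start of RPS7 and the 3 starts of RPL15 in the table did not match these letters. RPL11 and RPS19 each had another annotated start, not shown, that did not match either. The median log2 fold change was -0.21 over the 45 tested members with a match and -0.15 over the 19 without, a difference given as a description.

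All 153 probes kept for the members were examined for quality first. Of these probes, 150 were well above background on all 10 arrays and none had a saturated spot, the brightest member reading between 31.1% and 49.6% of the saturation value. Over all genes the array labelled miR-1225-3p replicate 5 stood apart from its group. On the first principal component, which held 69.6% of the variance, it scored 56.7, within the scrambled arrays (48.7 to 79.9), while miR-1225-3p replicates 1 to 4 scored between -133 and -53.0. All arrays were kept, and for the main results the values without this array are given beside those with it. Of the megakaryocyte markers, ITGA2B, GATA1, NFE2 and TAL1 were well above background on all arrays and GP9 on 8, PF4 was not well above background on any, and GP1BB was not matched to a probe by name. ITGA2B and NFE2 were called lower in the miR-1225-3p group (2 of 5 tested). All 4 erythroid markers were tested, with EPB42 called higher. Of the lymphoid markers MS4A1 was at background on every array. CD3E was above background on 4 arrays and called higher, and CD79A was above background on all 10, with a log2 fold change of -1.47 that did not pass (adjusted p = 0.0626 by limma; -1.85, called, without miR-1225-3p replicate 5). Of the fibroblast and epithelial markers EPCAM, above background on all 10 arrays, was called higher. Their part in the values below was not tested.

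The ribosomal protein mRNAs moved little for this comparison and few passed the test. At an adjusted p of 0.05 (limma, over all genes), 4 of the 81 members passed, 0 higher and 4 lower, or 4.94%, against 35% of all genes tested (17% higher and 18.1% lower). They included RPS16, RPLP0 and RPL15. No member differed by more than 2-fold, as 21.7% of all genes did. Their median was -0.19 (-0.06 over all genes), and 68 of 81 (84.0%) were negative, against 53.3% of all genes. The SD between arrays had a median of 0.160 in the scrambled and 0.204 in the miR-1225-3p group (0.249 and 0.438 over all genes). Genes of like brightness gave a closer background. Among 138 genes that are not members with a mean normalized log2 signal of at least 16, 18 were called (13%) and the median log2 fold change was -0.21. Of these 138 genes 109 were negative and 7 differed by more than 2-fold. The members' shares of negative values and of differences above 2-fold thus lay closer to these genes than to all genes.

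**Figure D1:**
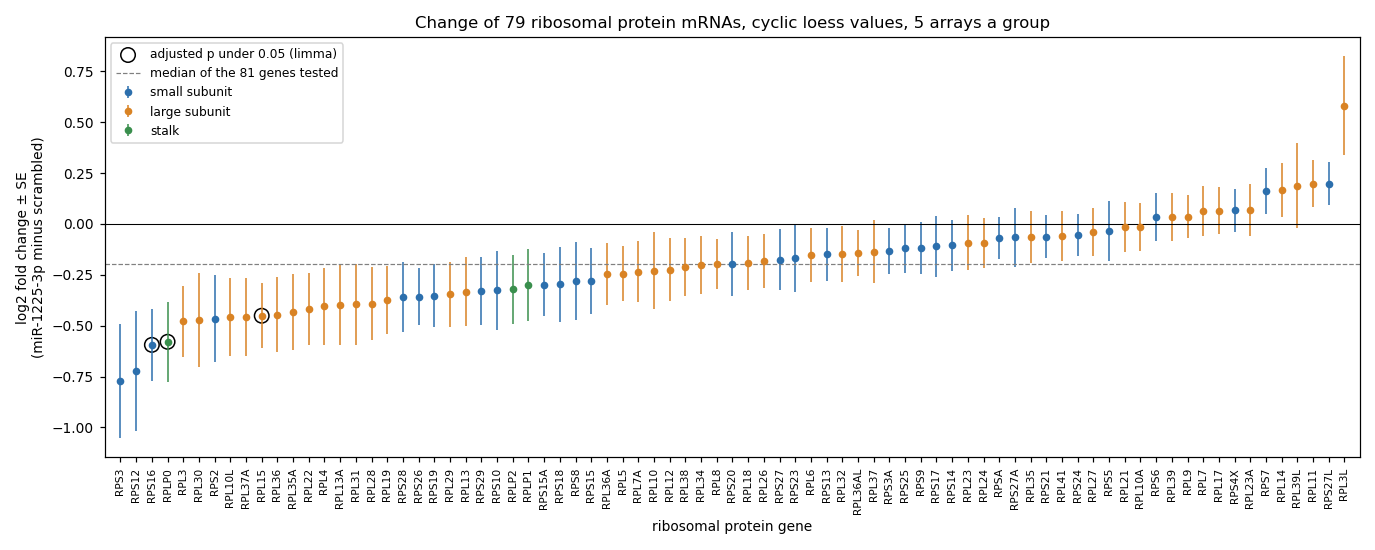
Log2 fold change (miR-1225-3p minus scrambled) with its standard error for 79 of the 81 ribosomal protein genes tested, in order of size and coloured by subunit, with the genes called by limma circled. The values run from -0.77 for RPS3 to 0.58 for RPL3L, and the circled genes, RPS16, RPLP0 and RPL15, all lie below 0.

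The array medians of the members overlapped between the groups. The median normalized log2 signal of the 81 genes was 17.10, 17.09, 17.27, 16.89 and 17.32 on miR-1225-3p arrays 1 to 5, and 17.47, 17.44, 17.17, 17.28 and 17.17 on scrambled arrays 1 to 5. The means were 17.13 ± 0.170 and 17.30 ± 0.143 (SD, n = 5). On single arrays, miR-1225-3p array 4 held the lowest value of all 10 for 56 of the 81 members, and scrambled array 1 the highest for 46. The members of miR-1225-3p array 5 lay close to the scrambled mean, with a median deviation of -0.01.

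**Figure D2:**
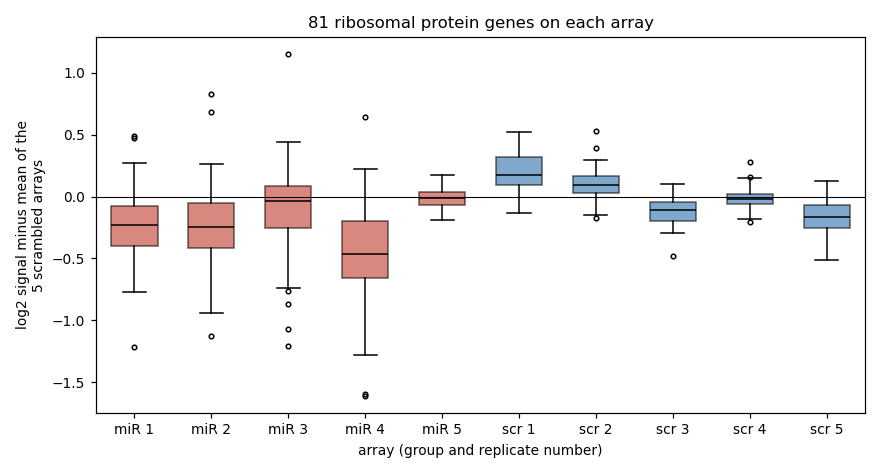
Normalized log2 signal of the 81 ribosomal protein genes on each array minus each gene's mean over the 5 scrambled arrays, as boxes (quartiles, with whiskers to the farthest gene within 1.5 interquartile ranges and points beyond). The boxes of miR-1225-3p arrays 1, 2 and 4 lie mostly below 0, that of miR-1225-3p array 5 is narrow and centred near 0, and scrambled array 1 lies highest.

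The direction of the class depended on how the arrays were scaled. With the 75th percentile of each array subtracted in place of cyclic loess, 30 of the 81 members were called and all 30 were higher, against 41.1% of all genes, and the members' median became 0.56 (0.16 over all genes). With quantile normalization 2 members were called, both higher (35.4% of all genes were called), and the median was 0.04. With no normalization between arrays 0 members were called by limma, where 7.28% of all genes were. Of the members 0 had an unadjusted p under 0.05, against 4625 of all 17379 genes. The members' median was 0.14 while that of all genes was -0.26. The members make up 74 of the 212 genes with a mean log2 signal of at least 16, so any scaling that depends on brightness rests partly on the members themselves. A rise or a fall of the class as a whole cannot be told apart from the choice of scaling in these arrays.

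**Figure D3:**
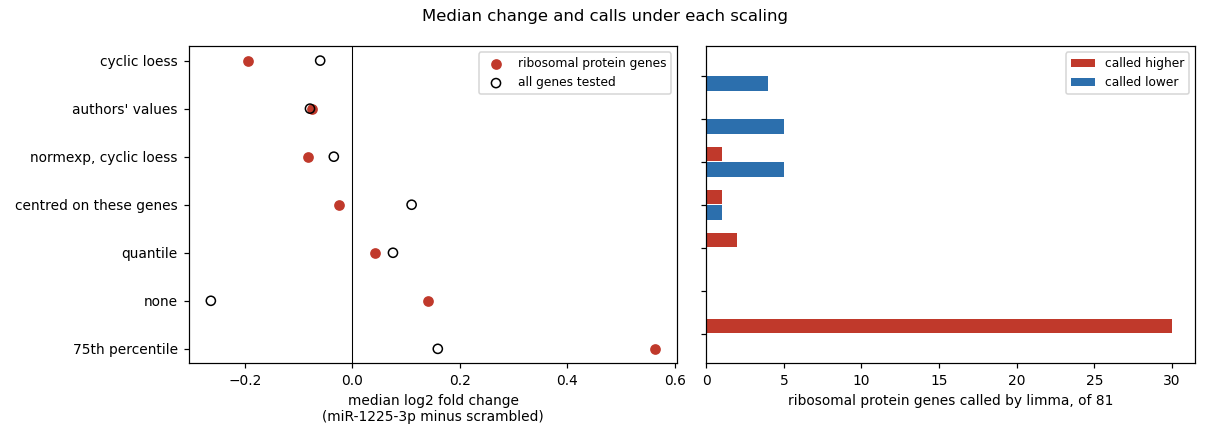
Median log2 fold change of the ribosomal protein genes (filled) and of all genes tested (open), and the number of ribosomal protein genes called higher or lower, under 7 ways of scaling the arrays. The members' median runs from -0.19 with cyclic loess to 0.56 with the 75th percentile subtracted, where the 30 called genes are all higher.

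The order of most members within the class depended less on scaling. Relative to the members' own median, RPS3 and RPS12 were among the 3 lowest under cyclic loess, quantile normalization, the 75th percentile, no normalization, the authors' values and normexp background correction. Across the 81 genes, which share the same 10 arrays, Spearman's rho with the cyclic loess order was between 0.931 and 0.987 for these alternatives. Subtracting a percentile shifts all genes of an array alike. The 75th percentile and no normalization therefore give the same order and count as 1 alternative here. RPS7, RPL11 and RPL14 were among the 6 highest under cyclic loess, and were the 3 highest with the 75th percentile subtracted. The dim paralogs RPL3L and RPL39L did not keep their places: counted from the lowest, they ranked 81 and 78 under cyclic loess but 41 and 17 with the 75th percentile subtracted or with no normalization. Values of RPL14, RPS3 and RPS12 are given because of this order, and these genes were chosen after their values were seen.

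RPS16, a protein of the small subunit, and RPLP0, the base of the stalk that recruits translation factors to the large subunit, were called lower. RPS16 read 17.22, 16.92, 16.86, 16.60 and 17.54 on the miR-1225-3p arrays and 17.73, 17.68, 17.58, 17.61 and 17.51 on the scrambled arrays. RPLP0 read 17.14, 16.89, 16.83, 16.48 and 17.60 against 17.76, 17.64, 17.45, 17.49 and 17.50. In both genes replicates 1 to 4 lay below every scrambled array and only replicate 5 overlapped the scrambled arrays. The log2 fold change of RPS16 was -0.59 ± 0.18 (SE, adjusted p = 0.0299 by limma). That of RPLP0 was -0.58 ± 0.20 (adjusted p = 0.0443 by limma), and its second probe gave -0.59. With the 75th percentile subtracted neither was called and both signs turned, to 0.17 and 0.18. Both were called without miR-1225-3p replicate 5, at -0.72 and -0.73.

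RPL15, a large subunit protein whose loss is a cause of Diamond-Blackfan anemia, passed the threshold narrowly. It read 16.56, 16.38, 16.41, 16.15 and 16.98 on the miR-1225-3p arrays and 17.05, 17.02, 16.93, 16.91 and 16.84 on the scrambled arrays. Its log2 fold change was -0.45 ± 0.16 (SE, adjusted p = 0.0495 by limma), -0.57 without miR-1225-3p replicate 5, and 0.29 with the 75th percentile subtracted. Within the first and the second slide the log2 fold changes were -0.54 and -0.65 for RPS16, -0.56 and -0.59 for RPLP0 and -0.47 and -0.45 for RPL15. The calls changed with single arrays, as did those over all genes. No member was called without miR-1225-3p replicate 2, 3 or 4, where 12.3%, 13.0% and 20.3% of all genes were called. The same held without scrambled replicate 1, 2, 3 or 4, where 17.7% to 19.5% of all genes were called. The 2 members called without miR-1225-3p replicate 1 (24.4% of all genes), and again without scrambled replicate 5 (27.1%), included RPS16. With each array left out in turn the log2 fold change ran from -0.723 to -0.487 for RPS16, -0.732 to -0.452 for RPLP0 and -0.573 to -0.366 for RPL15. Without miR-1225-3p replicate 5, 23 members were called, 1 higher and 22 lower, where 55.4% of all genes were called, and RPS2, RPL10L and RPL22, not called with all arrays, were among the 22.

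RPS3, a small subunit protein at the mRNA entry site, and RPS12, another small subunit protein, had larger differences than these but did not pass. RPS3 had a log2 fold change of -0.77 ± 0.28 (SE, adjusted p = 0.0546 by limma). RPS12 had -0.72 ± 0.29 (adjusted p = 0.0770 by limma), with an SD of 0.522 in the miR-1225-3p and 0.475 in the scrambled group. Without miR-1225-3p replicate 5 both were called lower, at -0.997 and -0.89.

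RPS7, a small subunit protein that can bind MDM2, was the single member whose groups did not overlap, where 12.7% of all genes tested had groups that did not. It read 17.05, 17.13, 17.33, 17.03 and 17.10 on the miR-1225-3p arrays and 17.03, 17.01, 16.81, 16.98 and 17.00 on the scrambled arrays. Every miR-1225-3p array, replicate 5 included, was above every scrambled array, though miR-1225-3p array 4 and scrambled array 1 were almost level. The log2 fold change was small, 0.16 ± 0.11 (SE), and did not pass (adjusted p = 0.265 by limma). The exact two-sided permutation p was 0.00794, the smallest that 5 arrays against 5 allow. Any gene whose groups do not overlap gets this value, so it only restates the separation for which RPS7 was named. The second probe of RPS7 did pass, at 0.35 (adjusted p = 0.0466 by limma over probes). The gene was called higher with quantile normalization (0.41, adjusted p = 0.0464 by limma) and with the 75th percentile subtracted (0.92, adjusted p = 0.0178 by limma). Its value was 0.17 without miR-1225-3p replicate 5 (not called), and its sign was positive under every alternative run.

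RPL5 and RPL11 form, with the ribosomal RNA of the large subunit, the complex that inhibits MDM2. Under cyclic loess they lay on opposite sides of 0. RPL11 read 17.22, 17.24, 17.33, 17.11 and 17.08 on the miR-1225-3p arrays and 16.97, 16.83, 17.01, 17.15 and 17.05 on the scrambled arrays. RPL5 read 17.16, 17.09, 17.27, 16.87 and 17.42 against 17.49, 17.47, 17.22, 17.50 and 17.36. Both genes overlapped between the groups. The log2 fold changes were 0.20 ± 0.12 for RPL11 (SE, adjusted p = 0.191 by limma) and -0.25 ± 0.13 for RPL5 (adjusted p = 0.168 by limma). RPL14, another large subunit protein, had 0.17 ± 0.13 (adjusted p = 0.323 by limma). Without miR-1225-3p replicate 5 they were 0.23, -0.31 and 0.19 for RPL11, RPL5 and RPL14, and none was called. With the 75th percentile subtracted all were positive, at 0.95, 0.52 and 0.93. RPL11 and RPL14 were called higher there, where 41.1% of all genes were called, and RPL14 also with quantile normalization (35.4%). With no normalization RPL11 had 0.53 and RPL5 0.10, and neither was called. The difference between RPL5 and RPL11 was not tested.

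**Figure D4:**
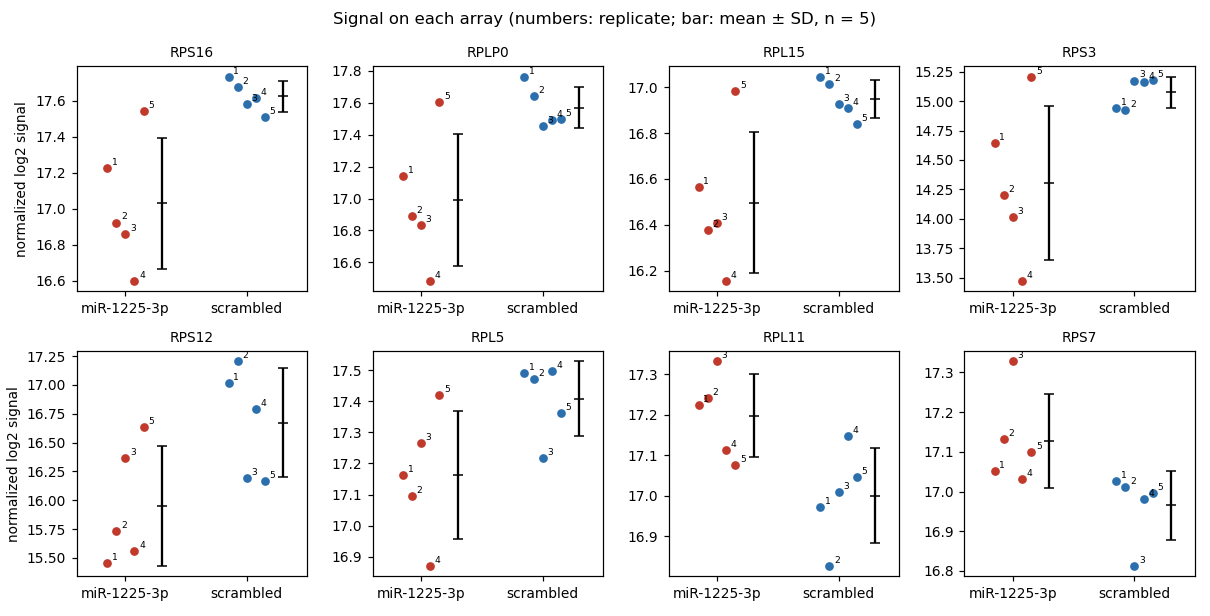
Normalized log2 signal of 8 ribosomal protein genes on each array, with the replicate number beside each point and the mean ± SD of 5 arrays as a bar, each panel on its own axis. In RPS16, RPLP0, RPL15 and RPS3, miR-1225-3p replicate 5 lies with the scrambled arrays and the other 4 below them, whereas RPS7 shows no overlap and spans a narrow range.

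By position in the ribosome the members differed little under cyclic loess, where 35% of all genes were called. Of 32 small subunit genes tested 1 was called lower (median log2 fold change -0.16), of 46 large subunit genes 2 (median -0.20), and of the 3 stalk genes 1, RPLP0. RPLP1 and RPLP2, the acidic proteins that bind RPLP0 as pairs, had log2 fold changes of -0.30 and -0.32 and did not pass. RPSA, a small subunit protein also known as the laminin receptor, had -0.07 and its 4 probes lay between -0.07 and 0.10. Of 7 genes whose proteins line the rim of the exit tunnel (RPL17, RPL19, RPL23A, RPL26, RPL31, RPL35 and RPL39), 0 were called by limma, and their median was -0.06. With the 75th percentile subtracted 14 of the 32 small subunit and 16 of the 46 large subunit genes were called. So were 0 of the 3 stalk and 4 of the 7 exit tunnel genes. All these calls were higher, where 41.1% of all genes were called. RPS2 and RPL38, among the 3 members with the highest normalized signal, had log2 fold changes of -0.47 and -0.21, and neither passed.

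The Diamond-Blackfan anemia genes among the members gave 1 call in 19, RPL15 (5.26%), close to the 4.94% of all members and below the 35% of all genes, and a median of -0.25. Scaled to the 75th percentile 8 of the 19 were called, all higher, where 41.1% of all genes were called, and their median was 0.52. RPS19, the gene most often altered in that disease, read 17.58, 17.48, 17.66, 17.31 and 17.88 on the miR-1225-3p arrays and 18.26, 18.03, 17.75, 17.93 and 17.71 on the scrambled arrays by its brightest probe. This probe did not pass, with a log2 fold change of -0.35 ± 0.16 (SE, adjusted p = 0.0944 by limma), or -0.43, called, without miR-1225-3p replicate 5. RPS26, RPL35A and RPS24 had log2 fold changes of -0.36, -0.43 and -0.05 and did not pass.

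The paralogs of the L and AL kind, further functional copies of a ribosomal protein gene, were not called (0 of 5 by limma, against 35% of all genes). Without miR-1225-3p replicate 5, 2 of the 5 were called (55.4% of all genes), RPL3L higher and RPL10L lower. With the 75th percentile subtracted 1 was called (41.1% of all genes), RPS27L, higher. RPL3L, the muscle form of RPL3, read 6.41, 6.76, 7.09, 6.58 and 5.75 on the miR-1225-3p arrays and 6.29, 5.96, 5.67, 6.10 and 5.68 on the scrambled arrays. Its log2 fold change of 0.58 ± 0.24 (SE, adjusted p = 0.0827 by limma) was the highest of all members under cyclic loess, and that of RPL3 was -0.48 ± 0.17 (adjusted p = 0.0536 by limma). Both were called without miR-1225-3p replicate 5, at 0.77 and -0.63. The other pairs were RPL39L at 0.19 with RPL39 at 0.04, RPS27L at 0.20 with RPS27 at -0.18, RPL36AL at -0.14 with RPL36A at -0.25, and RPL10L at -0.46 with RPL10 at -0.23. RPS27L, a target of p53, read 13.27, 13.19, 13.20, 13.22 and 13.11 on the miR-1225-3p arrays and 12.93, 12.90, 13.06, 12.98 and 13.13 on the scrambled arrays, the groups overlapping only where scrambled array 5 lay above miR-1225-3p array 5. Probes for RPL10L, RPL36AL and other near-identical copies may also bind the parent mRNA or its processed pseudogenes, so values within a pair are uncertain.

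Several members gave different answers from different probes, and most called probes were not the one that represents the gene. Tested one by one, 23 of the 153 member probes were called (3 higher, 20 lower), from 19 genes, against 35% of all probes kept. Of the 72 probes that do not represent a gene 20 were called and their median log2 fold change was -0.26, and of the 81 that do 3 were called. Of the 153 member probes 7 were called and more than 2-fold lower, against 12.4% of all probes. Among the 7 was a dim probe of RPL10, at -1.48, well above background on 4 arrays only. The largest fall of the 7 was for RPS18, a small subunit protein at the head of the subunit. Its brightest probe had a log2 fold change of -0.30, whereas its other probe read 15.11, 14.61, 14.51, 14.34 and 16.98 on the miR-1225-3p arrays and 17.17, 17.06, 16.90, 16.94 and 16.70 on the scrambled arrays. On that probe replicates 1 to 4 were lower than every scrambled array and replicate 5 lay among them. It had a log2 fold change of -1.84 ± 0.44 (SE, adjusted p = 0.0181 by limma over probes), or -2.31 without replicate 5.

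The same held for RPS19, whose second probe read 16.39, 15.76, 15.58, 15.21 and 17.58 on the miR-1225-3p arrays and 17.77, 17.46, 17.45, 17.66 and 17.40 on the scrambled arrays, a log2 fold change of -1.45. RPL37A, a zinc-binding protein of the large subunit, had -1.40 on its second probe (-0.46 on the brightest), and these probes had nearly the same mean signal. RPS14, the small subunit gene within the deleted region of the 5q- syndrome, had -1.45 (-0.11 on the brightest probe). RPL7 had -1.39 (0.06) and RPL35, next to the exit tunnel, -1.35 (-0.06). Without miR-1225-3p replicate 5 these second probes had -1.82 for RPS19, -1.71 for RPL37A, -1.79 for RPS14, -1.83 for RPL7 and -1.69 for RPL35. These 6 probes were well above background on all 10 arrays, and miR-1225-3p array 4 was the lowest array on each. The genes were chosen after their probes' values were seen.

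These 6 probes had negative log2 fold changes under each of the 4 scalings run probe by probe (cyclic loess, the 75th percentile, quantile and none). With the 75th percentile subtracted their log2 fold changes ran from -1.13 for RPS18 to -0.64 for RPL37A, and 5 of the 6 were called by limma (40.7% of all probes were called). RPL7 missed the threshold there, at -0.79 (adjusted p = 0.0594 by limma over probes). With quantile normalization all 6 were called, between -1.55 and -1.15 (34.8% of all probes were called). With no normalization between arrays they lay between -1.55 and -1.06 and none of the 6 was called by limma. The position of these probes in the transcripts was not available in the files used, so which isoform, transcript end or pseudogene each one reads was not tested.

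**Figure D5:**
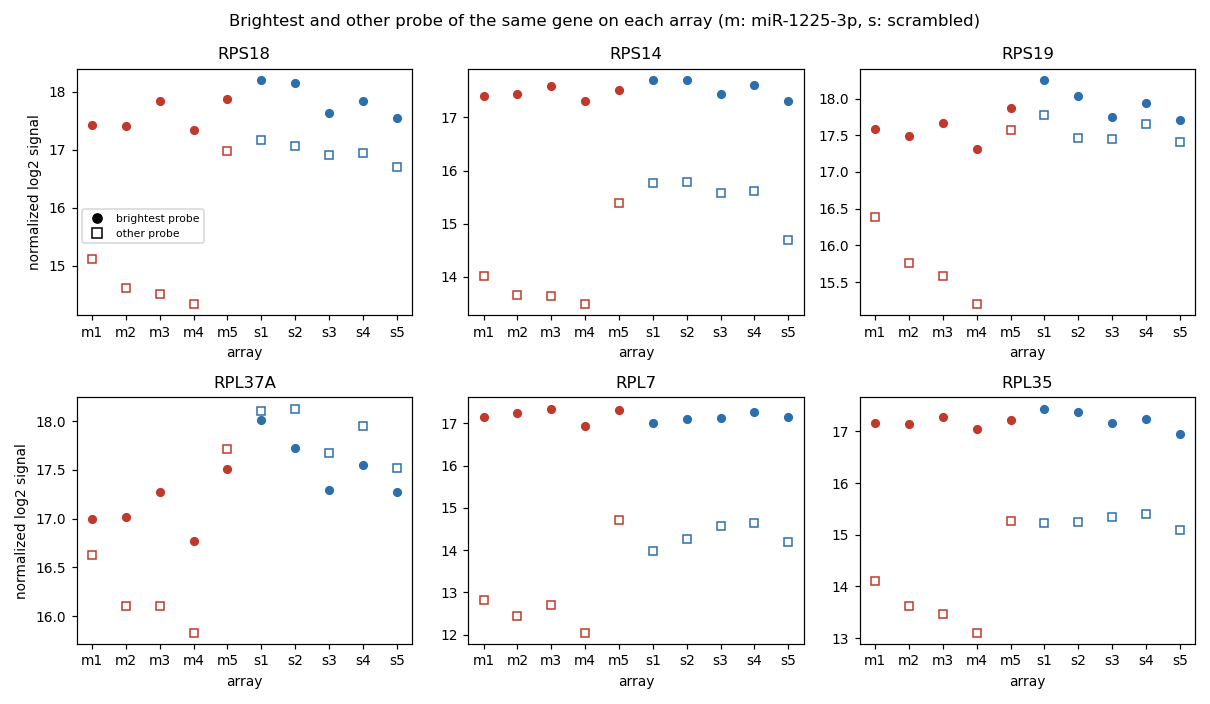
Normalized log2 signal of the brightest probe (filled circles) and of another probe (open squares) for 6 ribosomal protein genes on each array, each panel on its own axis. On miR-1225-3p arrays 1 to 4 the open squares lie below those of all scrambled arrays, on miR-1225-3p array 5 they lie near or within the scrambled range, and the filled circles change far less.

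Of the 39 members with at least 2 kept probes, the probes' log2 fold changes spanned more than 0.5 in 15 and more than 1 in 7, and 0 members had probes called in opposite directions by limma. RPL28 spanned 0, with its brightest probe at -0.39 and a dimmer one called higher at 0.37 (adjusted p = 0.0334 by limma over probes). A second probe of RPS23, a small subunit protein at the decoding site, was also called higher, at 0.40. Other members were uniform: the 5 probes of RPS3A lay between -0.14 and -0.05, and both probes of RPLP0 between -0.59 and -0.58. The 9 probes of RPL21 ran from -0.72 to 0.09. With the mean of all kept probes in place of the brightest, 12 members were called, all lower, where 34.9% of all genes were called. RPS18, RPL37A, RPS19, RPS14 and RPL35 were among the 12.

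Genes that act with the ribosomal proteins were called in both directions, and their shares are to be read against the 35% called over all genes. Among ribosomal proteins outside the naming rule, 2 of 6 were called (33.3%). RPL26L1, a near copy of RPL26, was higher at 0.58 (adjusted p = 0.0139 by limma) where RPL26 had -0.18, and RPL7L1, which works in subunit assembly, was lower at -0.80 where RPL7 had 0.06. RPL22L1 and its paralog RPL22 had 0.28 and -0.42 and did not pass. Of 16 other mRNAs with a TOP tract, 3 were called under cyclic loess (18.8%), all lower. With the 75th percentile subtracted 9 were called, 8 of them higher, where 41.1% of all genes were called. Without miR-1225-3p replicate 5, 10 were called, 3 of them higher, where 55.4% of all genes were called. EEF2, the elongation factor that moves the ribosome along the message, read 11.47, 10.78, 10.61, 9.59 and 14.48 on miR-1225-3p arrays 1 to 5, and the scrambled arrays read 13.88 to 14.46. Its log2 fold change of -2.85 ± 0.74 (SE, adjusted p = 0.0213 by limma) came from its single kept probe and lay below that of every member tested, and replicate 5 was again at the scrambled level (-3.62 without it).

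Of 30 ribosome assembly factors 13 were called (43.3%), 7 higher and 6 lower, with MRTO4 highest at 1.57 and NOLC1 lowest at -1.46. Of 12 genes of the RNA polymerase I machinery, which makes ribosomal RNA, 3 were called (25.0%), all higher, TAF1A with the largest value at 0.60. The lowest, RRN3 at -1.42, did not pass (adjusted p = 0.0598 by limma), and another of its probes was called higher, at 0.79. Without miR-1225-3p replicate 5, 8 were called (55.4% of all genes), 5 of them higher. RRN3, POLR1E and UBTF were then called lower, at -1.70, -1.14 and -1.01. Among the called genes of these lists, POLR1D of the polymerase (0.54) and NOP56 of the assembly factors (0.63) had a second kept probe called lower, at -1.39 and -1.13, and were singled out after their values were seen, so their direction is uncertain. Of 15 genes that control translation of TOP mRNAs 5 were called (33.3%). These shares lie on both sides of the 35% of all genes and nothing is read from them about the lists. RHEB, the activator of mTOR, was higher at 1.06, TSC1, which restrains RHEB, was higher at 0.71, and LARP1 was lower at -0.43. EIF4G1, the scaffold of the cap-binding complex, was lowest at -1.71. Without miR-1225-3p replicate 5 the values were 1.78 for MRTO4, -1.82 for NOLC1, 0.73 for TAF1A, 1.23 for RHEB, 0.81 for TSC1, -0.54 for LARP1 and -2.12 for EIF4G1. With the 75th percentile subtracted, RPL26L1, EEF2, MRTO4, NOLC1, TAF1A, RHEB, TSC1 and EIF4G1 remained called in the same direction. LARP1 and RPL7L1 were not called there, and the value of LARP1 turned to 0.10.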

How the data were processed

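The authors deposited Agilent Feature Extraction 10.7.3.1 output (the version in the file headers and labels, which differs from that in the study's methods) of 10 one-colour arrays, made from 100 ng of total RNA each. The processed signal is a background-subtracted intensity, and 2 more deposited intensity columns hold the median signal and its background. A deposited table of the authors' own normalized log2 values (29271 probes) served as an alternative.

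As in the study's methods, cyclic loess (3 iterations in limma 3.58.1, R 4.3.3) was applied to log2 processed signals of 58717 spots, without 4259 control spots. Outlier-flagged spots (deposited flags) were set missing and the spots of a probe averaged. A probe was kept when 3 or more arrays of one group were well above background (20648 of 42405), and the brightest kept probe by mean signal represents a gene. Symbols came from RefSeq accessions (24910 probes matched, GRCh38.p14). Probes without a match kept their own identifiers, each counted as a gene in the totals over all genes. Signals of different probes were not ranked as mRNA levels. The test was limma's moderated comparison (lmFit, eBayes, Benjamini-Hochberg over 17379 genes at 0.05), with, for single genes, an exact two-sided permutation test over the arrays. The script was tested on simulated data. The number of arrays limits the precision.

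The genes and lists were chosen with earlier results of these data known. Genes named by rule were the called members (up to 5 a direction), members whose groups did not overlap, the 3 brightest and the 3 dimmest, the stalk genes, RPSA, RPL5, RPL11, RPS19 and paralog pairs, and for each companion list the largest called rise and fall. Some genes that these rules cover are not reported here. Alternatives covered the scaling, background correction, filter, flags, probe choice, test, replicate and slide blocks, each slide alone and each array left out. The normexp correction used the median signal with an offset of 50.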

Additional observations from a re-analysis of the deposited data

Results flagged for a closer look

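Of 52 groups of 5 arrays examined for the named members, 3 held an array set far from the other 4, where chance gives about 2.6. RPS7 read 16.81 on scrambled array 3, below the other scrambled arrays. RPSA read 16.81 on scrambled array 1, above the others, which is also the array with the highest value of all 10 for 46 of the 81 members. RPL39L, a paralog of RPL39, read 7.79 on scrambled array 5, below the others.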

How the results depend on the processing

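The number of members called (4, all lower) and their median log2 fold change (-0.19) depended on the scaling and on single arrays, and the causes were not tested. The share of all genes called is given in brackets after each count, and was 35.0% in the main test. With the 75th percentile subtracted 30 were called (41.1%), 30 higher and 0 lower, with a median of 0.56. With quantile normalization 2 were called (35.4%), 2 higher and 0 lower, with a median of 0.042. With no normalization 0 were called (7.28%), 0 lower, with a median of 0.14, and 1 companion gene instead of 26. Centred on the members' median 2 were called (31.9%), 1 higher and 1 lower. Normexp gave 6 (30.3%), 1 higher and 5 lower. Without a filter on dim probes 1 was called (9.67%), RPL27A, 1 higher and 0 lower, and 15 companion genes. The mean of the kept probes gave 12 (34.9%), all 12 lower, and limma with trend and robust 7 (36.3%), all 7 lower. Array weights gave 34 of the 81 members, or 42.0%, below the share of all genes (66.3%). Of these 5 were higher and 29 lower, with 55 companion genes called. The methods' t-test gave 3 (26.9%) after Benjamini-Hochberg, 1 higher and 2 lower. On slide 1 alone (2 miR-1225-3p, 3 scrambled) 1 was called lower (25.9%). On slide 2 alone (3 and 2) limma called 0 members, 0 lower, and 0 companion genes (0 of all genes, 1220 at an unadjusted p under 0.05). Testing every kept probe on its own, an alternative chosen after seeing the data, gave 23 of 153 member probes, against 35% of all kept probes.

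No pairing by replicate number was seen, since deviations of same-numbered arrays correlated between -0.402 and 0.072. Under a replicate block limma called 0 members, 0 lower and 0 companion genes, and 0 of all genes, 7474 having an unadjusted p under 0.05. Leaving out each array in turn gave 0 to 23 members called, 0 to 1 higher, 0 to 22 lower, 7 to 51 companion genes and medians of -0.248 to -0.133. Over all genes the share called then ran from 12.3% to 55.4%. The value of RPL39 then ran from -0.00882 to 0.0812.

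Signs of single members turned mainly with scaling. With the 75th percentile the log2 fold changes were 0.171 for RPS16, 0.184 for RPLP0, 0.292 for RPL15, 0.327 for RPS2, 0.576 for RPL38, 0.468 for RPLP1, 0.442 for RPLP2, 0.669 for RPSA, 0.518 for RPL5, 0.426 for RPS19, 0.610 for RPS27, 0.510 for RPL36A, 0.582 for RPL36AL, 0.267 for RPL3, 0.531 for RPL10, 0.229 for RPL10L, 0.162 for RPL22 and 0.563 for RPL26. With quantile normalization they were 0.208 for RPSA, 0.00816 for RPS27, 0.0181 for RPL36A, 0.0870 for RPL36AL and 0.0948 for RPL26. With no normalization they were 0.154 for RPL38, -0.0516 for RPL39L, 0.0458 for RPLP1, 0.0193 for RPLP2, 0.247 for RPSA, 0.0958 for RPL5, 0.00362 for RPS19, 0.188 for RPS27, 0.0873 for RPL36A, 0.160 for RPL36AL, 0.108 for RPL10 and 0.141 for RPL26. RPSA was 0.0991 with centring, 0.0188 with normexp and 0.0166 in the authors' values, and RPL36AL was 0.0267 with centring. With the mean of the probes RPL39 was -0.0829 and RPL7 -0.466, and on slide 2 alone RPL39L was -0.109.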
